A study of Mus musculus with 59 samples.

Results

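The genes described here are 40 cell cycle and DNA replication genes, chosen by symbol as a readout of dividing cells in embryoid bodies (EBs) exposed to mouse serum. They comprise 15 S phase genes, 22 mitotic genes and the 3 transcription factors E2f1, Foxm1 and Mybl2. Of these, 39 had a row among the 19613 genes measured on every array. The ribonucleotide reductase subunit Rrm2 had no row, which left 14 S phase genes. The rule that lists them uses no measured value, though the genes were chosen with earlier results of these data known.

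EBs containing spinal motor neurons were made from mouse embryonic stem cells that carry an HB9-eGFP reporter, a fluorescent protein under a motor neuron promoter, and were exposed for 24 h to serum before RNA was hybridized to Affymetrix mouse exon arrays. The serum came from carriers of a human mutant SOD1 transgene, a mouse model of amyotrophic lateral sclerosis taken before symptoms (carrier, 29 arrays), or from littermates without it (non-carrier, 30 arrays), all on an F1 background of C57BL/6 and SJL. By the labels, 53 arrays were of 9 weeks and 6 of 10 weeks, read here as the age of the mice that gave the serum. The study was built to ask whether cells respond differently to both kinds of serum. The same stem cell line gave all EBs, the transgene was in the mice that gave the serum and not in the EBs, and each EB mixes motor neurons with progenitors and other cells. Since no batch is labelled, 9 runs were formed from the names and numbers in the array titles, called motorneuron, HB9MNs, 10wk and, for those known only by numbers, A to F. Each run held 2 to 6 carrier and 2 to 5 non-carrier arrays, and the 10-week arrays are 1 run, so age and run cannot be told apart. Run C is the largest, with 11 arrays. It exceeds the batch sizes in the methods and so probably holds more than 1 batch of EBs.

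A dividing cell copies its genome in S phase and separates the copies in mitosis. Cdc6 and Cdt1 load the MCM helicase onto origins, Cdc45 joins the helicase when an origin fires, and Pcna is the sliding clamp of the DNA polymerases. Genes of S phase are transcribed under E2F factors such as E2f1, whereas most mitotic genes are transcribed later under the MuvB complex with Mybl2 and then Foxm1. In a developing neural tube these genes mark cycling progenitors, and motor neurons leave the cell cycle as they are born, so an EB holds cells of both kinds.

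The 2 waves of transcription rest on different promoter elements, so the promoters of the 3 S phase and 3 mitotic genes that varied most between runs, among those with a promoter in the RefSeq table, are shown. Each is given as the 200 bases before the RefSeq start on build GRCm38.p6, 5′ to 3′ on the strand of the gene, with every motif match in capitals. The motifs were E2F sites (TTTGGCGC, TTTCCCGC, TTTGCCGC or TTTCGCGC), the CHR element (TTTGAA or TTCGAA) of mitotic promoters, and the CCAAT box (CCAAT), each on both strands. Cdc6 lies on chr11:98907951-98908150 (plus strand), Mcm3 on chr1:20820313-20820512 (minus), Mcm7 on chr5:138171884-138172083 (minus), Cdk1 on chr10:69352913-69353112 (minus), Top2a on chr11:99024190-99024389 (minus) and Bub1b on chr2:118598011-118598210 (plus).
Cdc6: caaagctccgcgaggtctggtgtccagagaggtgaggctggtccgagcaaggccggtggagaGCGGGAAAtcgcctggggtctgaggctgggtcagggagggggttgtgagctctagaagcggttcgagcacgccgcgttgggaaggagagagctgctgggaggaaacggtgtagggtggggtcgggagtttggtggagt
Mcm3: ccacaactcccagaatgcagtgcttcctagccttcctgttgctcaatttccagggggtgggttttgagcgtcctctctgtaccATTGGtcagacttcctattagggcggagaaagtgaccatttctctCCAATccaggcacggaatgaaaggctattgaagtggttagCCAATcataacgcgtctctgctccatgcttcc
Mcm7: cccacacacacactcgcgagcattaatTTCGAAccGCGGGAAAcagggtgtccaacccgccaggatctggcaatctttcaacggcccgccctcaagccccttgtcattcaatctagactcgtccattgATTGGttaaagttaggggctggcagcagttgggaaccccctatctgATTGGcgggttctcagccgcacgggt
Cdk1: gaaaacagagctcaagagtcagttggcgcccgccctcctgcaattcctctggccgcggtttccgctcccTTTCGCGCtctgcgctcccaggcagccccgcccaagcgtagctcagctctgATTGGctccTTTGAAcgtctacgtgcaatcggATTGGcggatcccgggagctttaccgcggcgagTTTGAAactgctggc
Top2a: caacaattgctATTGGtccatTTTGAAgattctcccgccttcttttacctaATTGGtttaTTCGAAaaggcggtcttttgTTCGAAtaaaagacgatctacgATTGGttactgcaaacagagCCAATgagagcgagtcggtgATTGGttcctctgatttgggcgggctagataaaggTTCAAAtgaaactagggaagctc
Bub1b: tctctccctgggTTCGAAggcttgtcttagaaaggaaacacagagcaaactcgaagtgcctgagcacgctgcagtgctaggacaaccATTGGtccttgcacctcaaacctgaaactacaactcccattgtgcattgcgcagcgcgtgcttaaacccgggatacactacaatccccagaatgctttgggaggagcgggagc
Of the S phase promoters, that of Cdc6 held an E2F site, that of Mcm7 an E2F site close to a CHR element, and Mcm3 held 3 CCAAT boxes. The E2F sites of Mcm3 lay past the start, outside the bases printed. The promoter of Cdk1 held an E2F site, 2 CHR elements and 2 CCAAT boxes within these bases, and that of Top2a held 4 CHR elements and 5 CCAAT boxes.

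Windows of 300 bases, from 250 before to 50 after the start, were found for 32 of the 39 genes and searched for the same motifs. Ccne2 was among those without one. An E2F site was found for 6 of 12 S phase genes (50%) and 1 of 18 mitotic genes (5.56%), that one being Cdk1, against 2.32% of 27025 genes with a window. A CHR element was found for 14 of 18 mitotic genes (77.8%) and 3 of 12 S phase genes (25%), against 19.4% of all. A CCAAT box was found for 16 of 18 mitotic genes (88.9%) and 8 of 12 S phase genes (66.7%), against 37.9% of all. Within the window of Mcm7 the last base of an E2F site was also the first of a CCAAT box. These are matches of letters and not shown to be sites in use.

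The RMA intensities showed signal for these genes. The mean log2 intensity of each of the 39 was above 6.31, the 95th percentile of 1032 olfactory receptor genes taken as background, and 38 of the 39 were above it on every array, the exception being Cdc6. Array medians ran from an intensity of 151 to 183. The two-sided Grubbs' test within runs called 2 arrays, non-carrier array 14 of run C and carrier array 23 of run E. The motor neuron transcription factor genes Mnx1 and Isl1 were above background, with mean log2 intensities of 8.86 and 10.54 with carrier serum and of 8.89 and 10.48 with non-carrier serum.

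Levels of the S phase genes differed mainly by run. Averaged over the 14 genes, the log2 intensity was highest in run E, at 8.75 ± 0.04 (SD, n = 6 arrays), followed by the 10wk run at 8.65 ± 0.04 (n = 6), and lowest in run A, at 7.995 ± 0.06 (n = 6). Between them lay runs B (8.54), F (8.52), D (8.41), HB9MNs (8.24), C (8.23) and motorneuron (8.19). Arrays of neighbouring runs in this order overlapped for 6 of 8 pairs, so most neighbours did not differ beyond their spread, and the exceptions were run E over the 10wk run and run D over HB9MNs. The run explained a median of 85.6% of the variance of an S phase gene, from 53.4% to 92.3%. The median was 62.5% over all genes and 69.5% over genes above the median intensity, so much of this share is common to the series. Of the 14 genes, 11 were highest in run E and 10 were lowest in run A. Since RNA was taken from whole EBs, fewer dividing cells and less RNA of these genes per cell cannot be told apart.

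**Figure D1:**
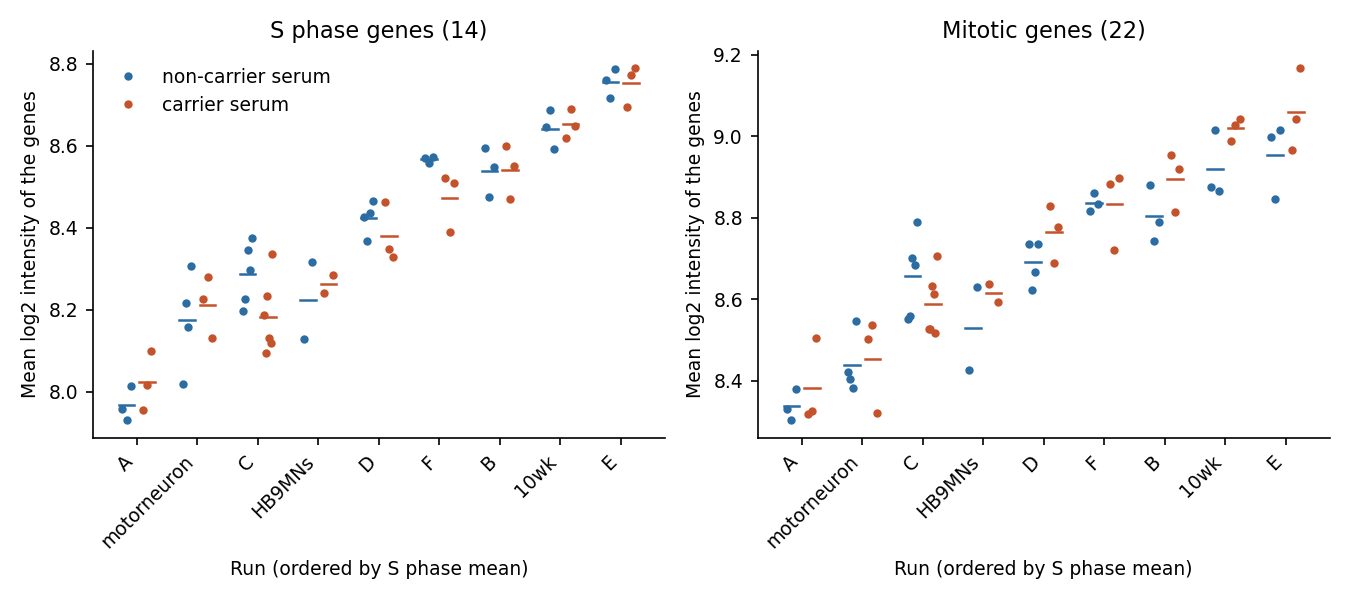
Mean log2 intensity of the 14 S phase genes (left) and the 22 mitotic genes (right) on each array, by run in the order of the S phase mean; points are arrays, coloured by serum, and short lines are group means. Run A sits lowest and run E highest in both panels, and within a run the points of the sera mostly overlap.

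All 39 genes differed between runs in limma's F test with Benjamini-Hochberg adjustment. That is near the 94% of all genes that did so and says nothing particular to these genes. What they shared was the order of the runs. Across 39 genes, the run means of 741 of 741 gene pairs correlated positively, with a median r of 0.85 over 9 runs, against a median of -0.19 between these genes and all others. On arrays after run and serum means were removed, 644 of 741 pairs were positive with a median r of 0.37 (59 arrays), against -0.03 with all other genes. Arrays of a run may share EBs and handling, which the labels do not state, so these correlations are descriptions.

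**Figure D2:**
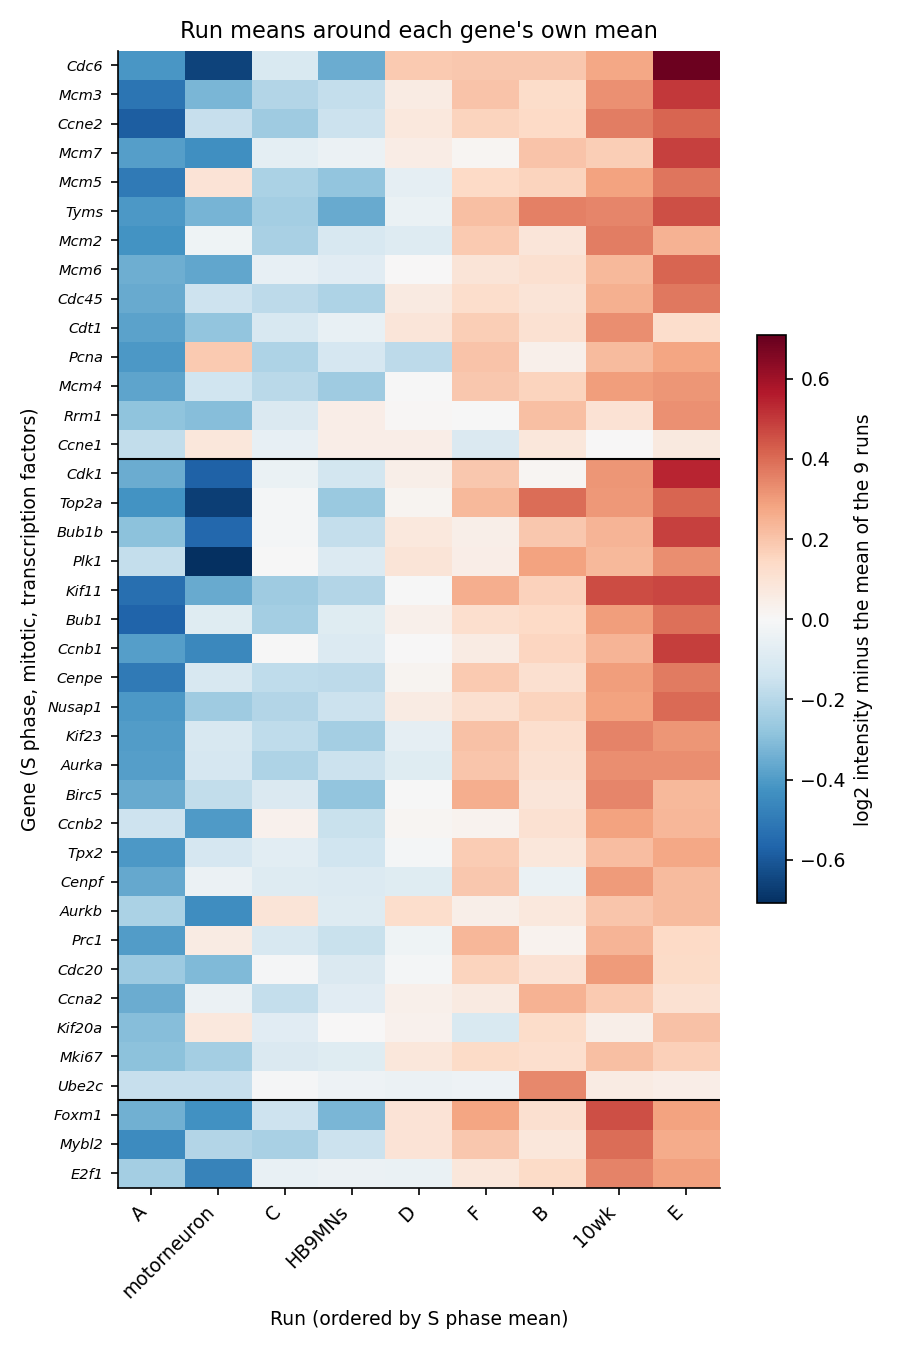
Run mean of each of the 39 genes minus its mean over the 9 runs (log2 intensity, colour), with S phase genes at the top, mitotic genes in the middle and transcription factors at the bottom. Runs are ordered by the S phase mean, and nearly every gene passes from blue (low) in run A to red (high) in the 10wk run and run E. In the motorneuron run Mcm5, Pcna, Ccne1, Prc1 and Kif20a were above their own mean.

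Cdc6, which loads the helicase, had the widest measured range. Its arrays lay between 5.79 and 6.01 in the motorneuron run and between 6.97 and 7.40 in run E, with means of 5.90 and 7.25. All arrays of the motorneuron run were below the background of 6.31, so run E was at least 1.92-fold higher, taken against that background, and the measured log2 range of 1.35 is no exact difference. The arrays of these runs did not overlap. Mcm3, a subunit of the helicase, ranged from 7.33 ± 0.08 (SD, n = 6) in run A to 8.35 ± 0.03 (n = 6) in run E. Ccne2, the cyclin E that activates Cdk2 at the G1/S border, ranged from 6.75 ± 0.07 in run A to 7.74 ± 0.14 in run E. For both genes all arrays of run E were above all arrays of run A. Cdc6, Mcm3 and Ccne2 were picked for wide ranges and compared at their extreme runs, so such gaps follow in part from the choice. They were not counted over all genes.

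The other helicase subunits followed, with log2 ranges of run means of 0.92 for Mcm7, 0.88 for Mcm5, 0.78 for Mcm2 and Mcm6 and 0.68 for Mcm4. The nucleotide synthesis genes Tyms and Rrm1 ranged by 0.86 and 0.63, and Cdc45 and Cdt1 by 0.73 and 0.71. Pcna ranged by 0.69, from 9.59 ± 0.07 in run A to 10.27 ± 0.11 in run E. It parted from most of the rest in the motorneuron run, where it averaged 10.18 ± 0.30 (n = 7) while the S phase mean was the second lowest of the 9 runs. Mcm5 and Ccne1 were also above their own means there. The arrays of that run spread from 9.65 to 10.52, nearly the whole span of Pcna over the series.

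Ccne1, the other cyclin E gene, stood out by varying little. Its run means spanned 0.25, from 8.12 in run A to 8.38 in the motorneuron run, and correlated with the mean of the other S phase genes at r = 0.42 over 9 runs. The same correlation was 0.74 for Pcna and between 0.86 and 0.99 for the other 12 S phase genes. Within runs, Rrm1 followed the other S phase genes most closely (r = 0.86 over 59 arrays after run and serum means were removed) and Cdt1 least (r = 0.02). Cdt1 protein is known to be removed once S phase starts, but the arrays measure RNA alone.

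The mitotic genes took nearly the same order. Their mean was 9.01 ± 0.10 (SD, n = 6) in run E, 8.97 ± 0.08 in the 10wk run, 8.45 ± 0.09 (n = 7) in the motorneuron run and 8.36 ± 0.07 (n = 6) in run A. The order of the lowest 2 depends on scaling, since array medians were highest in the motorneuron run, at a mean intensity of 175. With arrays centred on their median, the motorneuron run (8.32) lay below run A (8.36). Run E held the highest mean of 13 of the 22 genes, the 10wk run of 7 and run B of 2, and the lowest mean lay in run A for 13 and in the motorneuron run for 9. Arrays of all 8 neighbouring pairs of runs overlapped. Run means of the S phase and mitotic genes correlated at r = 0.99 (rho = 0.98, 9 runs), and the array means after run and serum were removed at r = 0.82 (59 arrays), a description, since both sets were read on the same arrays.

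Cdk1, the kinase that drives entry into mitosis, ranged most, from 8.56 ± 0.19 (n = 7) in the motorneuron run to 9.67 ± 0.13 (n = 6) in run E, a 2.16-fold difference. Top2a, the topoisomerase that untangles sister chromatids, ranged from 8.89 ± 0.25 to 9.97 ± 0.23 between the same runs. Bub1b, a kinase of the spindle checkpoint, ranged from 7.22 ± 0.14 to 8.26 ± 0.17. For all 3 genes the arrays of the motorneuron run lay below those of run E without overlap. Here too the genes and runs were picked as extremes, and gaps of this kind were not counted over all genes. Plk1, the polo kinase of mitotic entry, and Kif11, the motor that separates spindle poles, ranged by 1.04 and 1.01.

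Cyclin B1 (Ccnb1) ranged by 0.95 and cyclin B2 (Ccnb2) by 0.69, the checkpoint kinase Bub1 by 0.96 and the kinetochore genes Cenpe and Cenpf by 0.87 and 0.66. The spindle genes Nusap1 and Tpx2 ranged by 0.81 and 0.68, the Aurora kinase genes Aurka and Aurkb by 0.72 and 0.66 and Birc5, which works with Aurkb, by 0.70. Of the genes for the end of mitosis, Kif23 ranged by 0.75, Prc1 by 0.63, the APC/C activator Cdc20 by 0.61 and Kif20a by 0.51. Cyclin A2 (Ccna2) ranged by 0.60. Mki67, the usual marker of cycling cells, ranged by only 0.51, from 9.07 ± 0.08 in run A to 9.58 ± 0.11 in the 10wk run. Ube2c, the E2 enzyme of the APC/C, ranged by 0.50, was highest in run B and followed the other mitotic genes less than most (r = 0.64 over 9 runs), as did Kif20a (r = 0.61).

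The transcription factor genes were all highest in the 10wk run. E2f1 was at 8.26 there and at 7.44 in the motorneuron run, Foxm1 at 8.22 and 7.34, and Mybl2 at 7.52 against 6.68 in run A, its lowest run. Over 9 runs, correlations of each with the mean of the other 2 were 0.88, 0.96 and 0.91. Within runs E2f1 followed the others least (r = 0.15 over 59 arrays).

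Markers of other cells moved with the runs as well. Neural progenitor markers took no common order, since 7 of 13 correlated positively with the S phase mean over the 9 runs (median r = 0.05) and their mean level spanned only 9.20 in HB9MNs to 9.44 in run B. Nes, an intermediate filament gene of progenitors, and the Notch target Hes1 followed it (r = 0.92 and 0.83), whereas Pax6 and Olig2, factors of ventral progenitors, ran the other way (r = -0.51 and -0.43). Astrocyte markers were negative for 5 of 5 genes (Slc1a2, a glutamate transporter, r = -0.94), with a list mean of 7.26 in the motorneuron run and 6.74 in run E. Red blood cell markers were negative for 6 of 6 genes, with means of 6.37 and 5.75 in the same runs. Their part in the differences between runs was not tested.

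None of the 39 genes passed the threshold for a change with carrier serum. In limma, blocking on the run, 0 of 39 were called lower, against 1.65% of all genes, and 0 of 39 higher, against 0.683% of all genes. At an unadjusted p under 0.05 there was 1 S phase gene lower (7.14% of 14), 4 mitotic genes higher (18.2% of 22) and no transcription factor, against 8.68% of all genes lower and 12% higher at that p. The median log2 change, carrier minus non-carrier, was -0.02 over the 14 S phase genes, of which 11 were lower, and 0.04 over the 22 mitotic genes, of which 21 were higher. The median over all genes was 0.02, with 38.9% lower and 61.1% higher. Over the genes above the median intensity, where most of the 39 lie, 58.9% were lower and 41.1% higher. By size these changes are small beside the runs, since the median range of run means was 0.78 for the S phase genes and 0.71 for the mitotic genes. Over all genes it was 0.53. A range over 9 runs is a wider measure than a difference between the sera, so this comparison is rough.

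**Figure D3:**
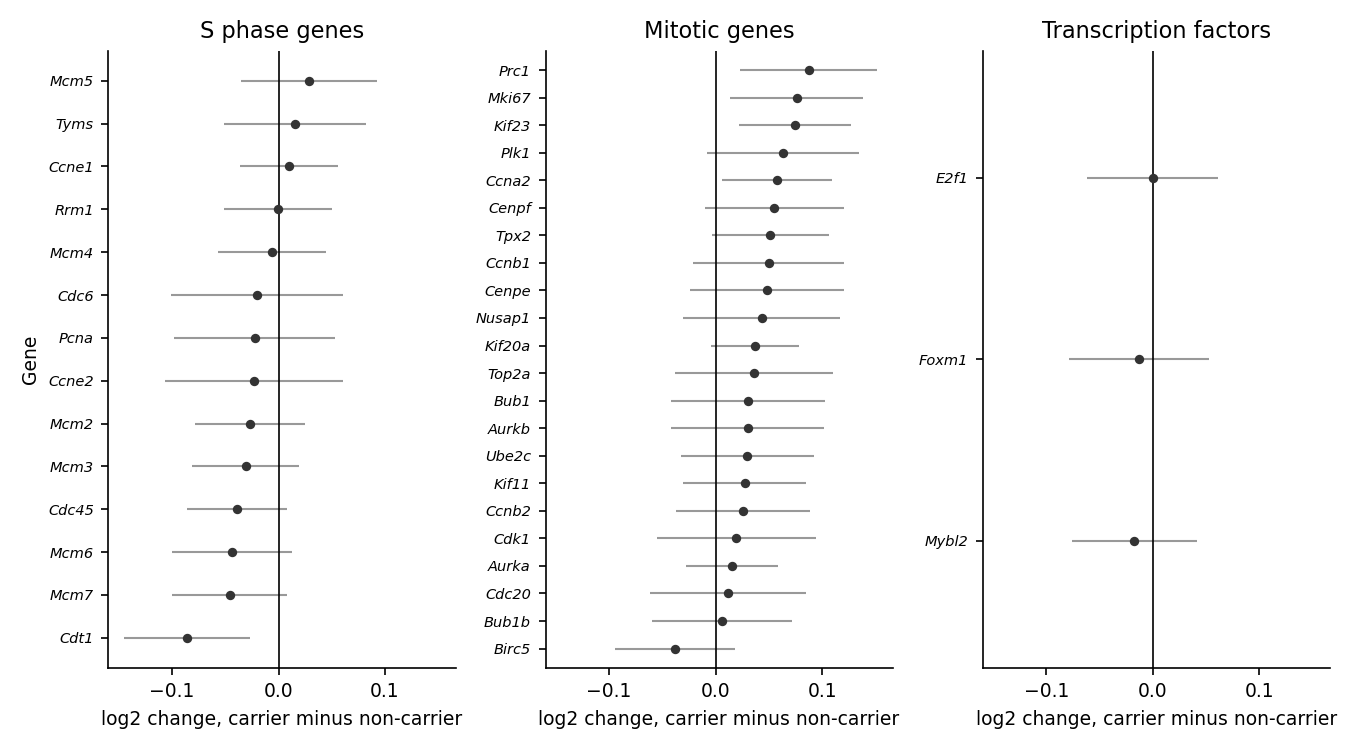
Log2 change with carrier serum (carrier minus non-carrier, run as a block) of each gene; points are estimates and bars span 2 standard errors on each side. Most S phase genes sit left of 0 with Cdt1 lowest and most mitotic genes right of it with Prc1 highest, and no gene passed the adjusted threshold.

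Cdt1, the licensing factor, had the smallest p of the S phase genes. Its log2 intensity with carrier serum was 7.25 at the lowest, 7.58 at the median and 7.97 at the highest array, and with non-carrier serum 7.11, 7.74 and 8.02. The groups overlapped over nearly their whole range, because runs differ more than sera. Within runs, the carrier mean was lower in 8 of 9, and all carrier arrays were below all non-carrier arrays in 1 run. The change was -0.09 ± 0.03 (SE), or -5.77%, with an adjusted p of 0.0985 in limma. Without both arrays called by Grubbs' test it was -0.06.

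Mcm7 and Cdc45 came next. Mcm7 spanned 9.07 to 10.16 with carrier serum (median 9.58) and 8.93 to 10.13 with non-carrier serum (median 9.67). Its change was -0.05 ± 0.03 (SE), with limma's adjusted p at 0.32. Cdc45 spanned 7.20 to 8.20 (median 7.61) and 7.17 to 8.03 (median 7.70). Its change was -0.04 ± 0.02 (SE), adjusted p = 0.333 in limma. Both had lower carrier means in 6 of 9 runs.

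Pcna spanned 9.55 to 10.49 with carrier serum (median 9.98) and 9.51 to 10.52 with non-carrier serum (median 9.99), a change of -0.02 ± 0.04 (SE; limma adjusted p = 0.749). All carrier arrays were below all non-carrier arrays in 2 runs, among them run F, where the means were 10.08 and 10.32. In the motorneuron run the order was the opposite, at 10.31 against 10.09, with overlap. Without run F its change was 0.0016, so its sign rests on that run. Of the rest, Mcm6 had a change of -0.04, Mcm2 and Mcm3 of -0.03, Ccne2 and Cdc6 of -0.02 and Mcm4 of -0.01. Mcm5, Tyms and Ccne1 had changes of 0.03, 0.02 and 0.01, and Rrm1 one of -0.00031.

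**Figure D4:**
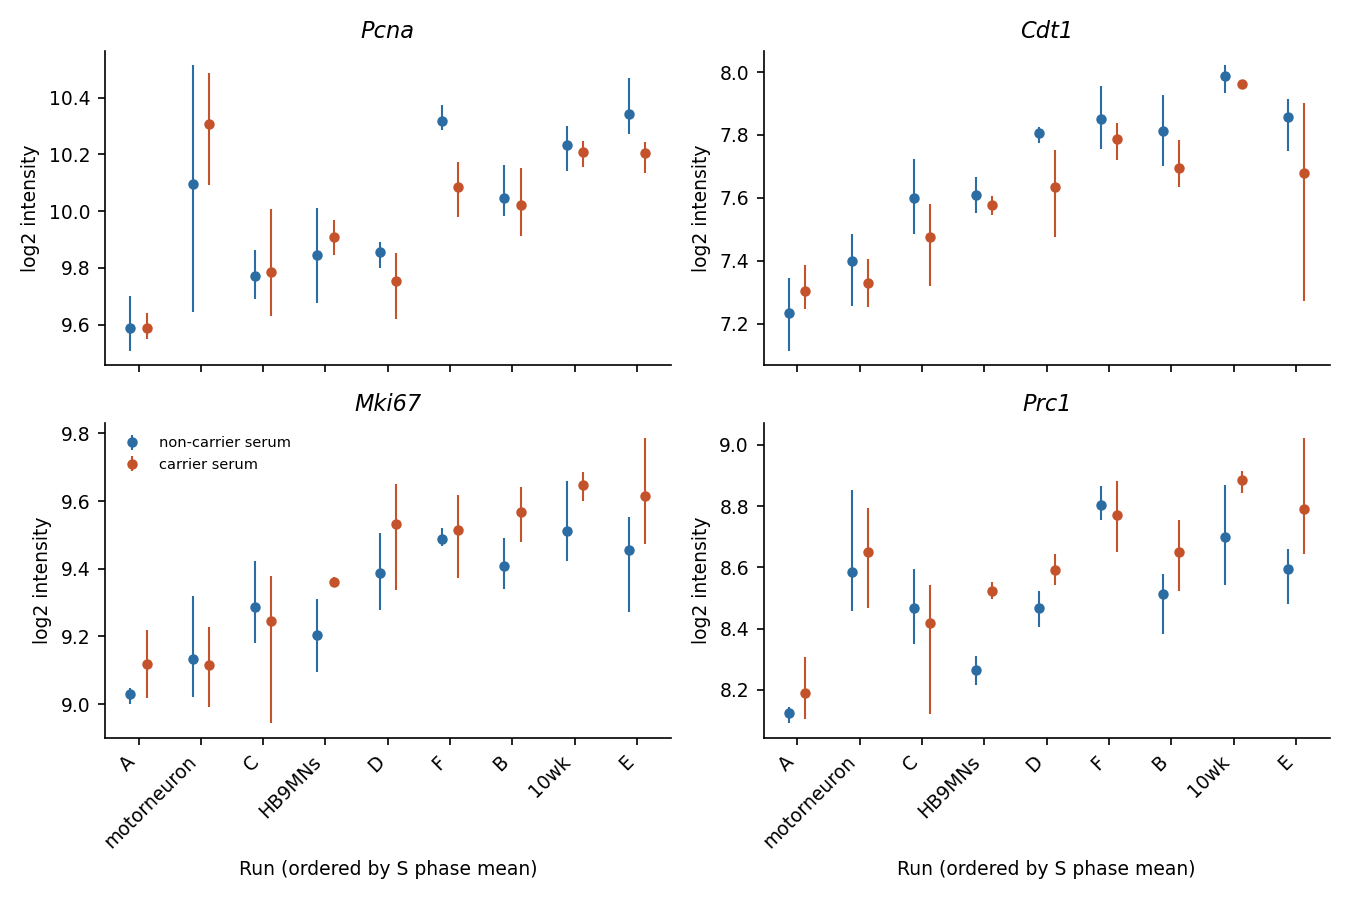
Log2 intensity of Pcna, Cdt1, Mki67 and Prc1 by run and serum; points are means of the arrays of a run and serum, and bars run from the lowest to the highest array. Runs follow the order of the S phase mean, and within most runs the bars of the sera overlap.

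Among the mitotic genes Kif23 and Prc1 had the smallest p. Kif23, a motor of the centralspindlin complex, spanned 7.59 to 8.55 with carrier serum (median 7.95) and 7.52 to 8.38 with non-carrier serum (median 7.93). Its carrier mean was higher in 6 of 9 runs, and in 4 of them all carrier arrays were above all non-carrier arrays. These 4 runs had 2 to 4 arrays per serum, and in run D the nearest arrays were at 7.955 and 7.950. Such separations were not counted over all genes. The change was 0.07 ± 0.03 (SE), or 5.30%, with an adjusted p of 0.104 in limma. Prc1, which bundles the midzone microtubules, spanned 8.11 to 9.02 (median 8.59) against 8.09 to 8.87 (median 8.51). It was higher in 7 of 9 runs, without overlap in 2, and its change was 0.09 ± 0.03 (SE), or 6.23%, with an adjusted p of 0.121 in limma.

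Mki67 spanned 8.94 to 9.79 with carrier serum (median 9.38) and 9.00 to 9.66 with non-carrier serum (median 9.33). Its carrier mean was higher in 7 of 9 runs, with all carrier arrays above all non-carrier arrays in 1 of them. The change was 0.08 ± 0.03 (SE; limma adjusted p = 0.161). Ccna2 was the fourth with an unadjusted p under 0.05, at 0.06 ± 0.03 (SE; limma adjusted p = 0.196). Birc5 was the 1 mitotic gene with a negative change, -0.04, and the other 17 lay between 0.01 and 0.06, Plk1 at the top.

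The count for mitotic genes turned on run C. Without run C, 5 of 22 mitotic genes (22.7%), and so 12.8% of the 39, were called higher by limma, namely Mki67, Ccna2, Plk1, Kif23 and Prc1, against 3.48% of all genes. Their changes were then 0.10, 0.08, 0.12, 0.10 and 0.12, with adjusted p from 0.0137 to 0.0363. Weighting arrays by their quality called the same 5 genes, against 6.95% of all genes. The median change without run C was 0.06 over the mitotic genes and -0.0043 over the S phase genes. In run C the median change of mitotic genes was -0.06, with 19 of 22 lower, and that of S phase genes was -0.13, with 12 of 14 lower.

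The transcription factors overlapped between the sera. E2f1 spanned 7.41 to 8.30 with carrier serum (median 7.96) and 7.14 to 8.39 with non-carrier serum (median 7.91), with a change of 0.00027 ± 0.03 (SE) that took the other sign in 12 of 24 alternative settings. Foxm1 spanned 7.26 to 8.28 (median 7.78) and 7.13 to 8.30 (median 7.81), and its change was -0.01 ± 0.03 (SE). Mybl2 spanned 6.61 to 7.64 (median 7.08) and 6.63 to 7.56 (median 7.13), and its change was -0.02 ± 0.03 (SE). Arrays of the sera overlapped in all 9 runs for all 3 genes. Limma's adjusted p was 0.997 for E2f1, 0.838 for Foxm1 and 0.751 for Mybl2.

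The median changes of S phase and mitotic genes had opposite signs in the 10wk run and runs B, D and F, and the same sign in the others. In the 10wk run the median change was 0.12 over mitotic genes, with 21 of 22 higher, and -0.01 over S phase genes, with 8 of 14 lower. Mitotic medians were also positive in runs E (0.13), D (0.10), B (0.10) and HB9MNs (0.09), with 18, 18, 20 and 19 of 22 genes higher. S phase medians in the same runs were 0.01, -0.04, -0.00349 and 0.03. The S phase mean minus the mitotic mean was lower with carrier serum in 7 of 9 runs, by differences from -0.12 in run D to -0.04 in run C, and higher in the motorneuron run (0.02) and run A (0.01). This contrast was noticed in the data and is given without a test.

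**Figure D5:**
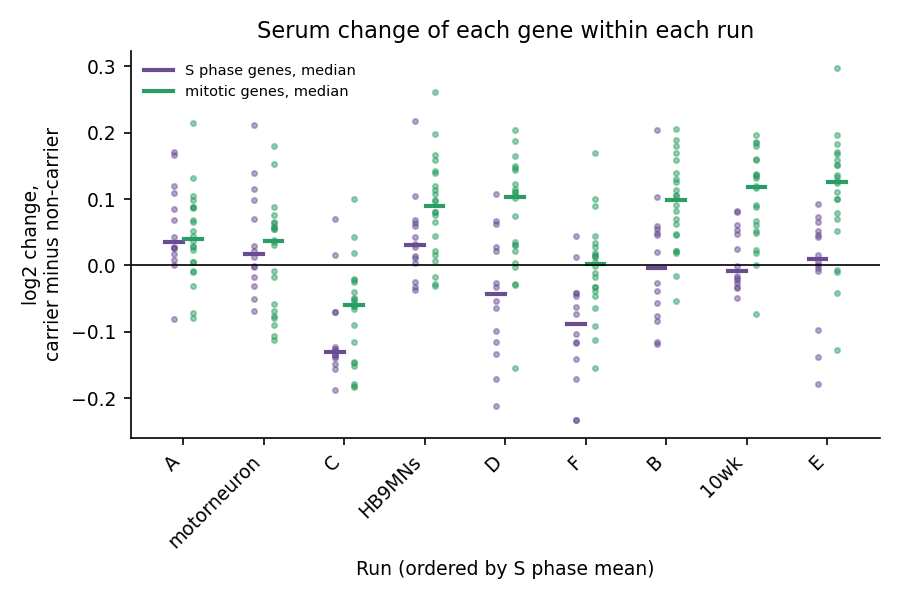
Log2 change with carrier serum within each run, carrier mean minus non-carrier mean; points are genes, S phase in purple and mitotic in green, and thick lines are medians. Mitotic medians sit at or above 0 in every run but C, and S phase medians are lowest in runs C and F.

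Run F had the S phase genes lower (median -0.09, 12 of 14) with the mitotic genes at 0.0024 (11 of 22 lower). Run A had both sets higher, the S phase genes by a median of 0.03 with 13 of 14 higher. With run C split in 2, following the sequence in which its arrays are listed, the medians of S phase and mitotic genes were -0.06 and 0.0021 in the first section, and -0.12 and -0.09 in the second, with 14 of 14 S phase and 20 of 22 mitotic genes lower. Whether the effect of serum differed between runs was tested by an interaction term in limma. It was called for 0 of the 39 genes, against 0.127% of all genes, and 2 (5.13%) had an unadjusted p under 0.05, Plk1 (0.0106) and Ccnb2 (0.0329), against 7.94% of all genes.

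No other gene of replication, mitosis or G1 was called. Of 42 further replication genes, 27 were lower with carrier serum and none was called, with 7 (16.7%) at an unadjusted p under 0.05, all lower, and a median change of -0.02. Of all genes, 38.9% were lower and 8.68% were lower at that p. Of 49 further mitotic genes, 33 (67.3%) were higher and none was called, with 3 higher (6.12%) and 1 lower at an unadjusted p under 0.05 and a median of 0.02. Over all genes, 61.1% were higher, 12% at that p, with a median of 0.02. Among genes above the median intensity, 58.9% were lower (15.7% at that p) and 41.1% higher (6.49% at that p), with a median of -0.0096. Of 24 G1 cyclins, kinases and pocket protein genes none was called by limma, with 1 lower and 1 higher at that p. By run, 47 of 49 further mitotic genes and 37 of 42 further replication genes correlated positively with the S phase mean over the 9 runs, at median r of 0.90 and 0.76.

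Among 13 cell cycle inhibitors and exit genes, 2 (15.4%) were called lower, against 1.65% of all genes, and 5 (38.5%) had an unadjusted p under 0.05, all lower, against 8.68% of all genes. Btg1, an antiproliferative gene, had mean log2 intensities of 9.89 ± 0.18 (SD, n = 29) with carrier serum and 9.99 ± 0.15 (n = 30) with non-carrier serum. Its change was -0.10 ± 0.03 (SE), lower in 7 of 9 runs, with an adjusted p of 0.0437 in limma. Gadd45g, a stress-inducible gene that slows the cell cycle, had means of 7.70 ± 0.18 and 7.82 ± 0.19. Its change was -0.12 ± 0.03 (SE), lower in 7 of 9 runs, with an adjusted p of 0.0457 in limma. Both stood close to the threshold and passed it no longer in 10 and 11 of 24 alternative settings. Leaving out any 1 of the runs 10wk, A, B, D, E and F ended both calls, with adjusted p from 0.087 to 0.214, and leaving out HB9MNs ended that of Btg1 (0.0556). By run, these 13 genes ran mostly against the S phase mean, with 5 of 13 positive (median r = -0.33), and their mean was highest in the motorneuron run (8.66) and lowest in run E (8.39).

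Some neuronal markers were called with serum as well, against 0.683% of all genes called higher. Of 7 motor neuron markers 1 was called higher, the choline transporter gene Slc5a7 (0.15, limma adjusted p = 0.041), and of 9 markers of postmitotic neurons 3 were called higher, Snap25 (0.07), Stmn2 (0.06) and Nefl (0.06). Both lists also held genes with negative changes, 4 of 7 and 3 of 9, among them Lhx3 (-0.09), Lhx4 (-0.05) and Rbfox3 (-0.06), none of them called. Of 5 astrocyte markers, Slc1a2 was called lower (-0.07). Of 13 neural progenitor markers none was called by limma, with 2 lower at an unadjusted p under 0.05, Olig2 at -0.09 and Nkx6-1 at -0.08. When Olig2, Lhx3, Mnx1 and Isl1 were added to the fit as covariates, 3 of 14 S phase genes (21.4%) were called lower, Ccne2 (-0.15), Pcna (-0.13) and Mcm7 (-0.09), against 11.1% of all genes called lower in that fit. As a share of the 39 genes that is 7.69%, below all genes. None of the 39 was called higher in that fit, against 20.1% of all genes. The mitotic median in that fit was 0.0077, with 11 of 22 lower, against a median of 0.03 over all genes. The part of these markers in the serum changes of the 39 genes was not otherwise tested.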

How the data were processed

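RNA of EBs from 59 assays was hybridized to Affymetrix mouse exon arrays. The deposited values are gene intensities on a linear scale, which the authors made by Robust Multi-array Averaging, taking the mean of all exons of a gene, after removing arrays called by Grubbs' test. The submitters' processing notes name Affymetrix Expression Console and RMA, and the study's methods name the aroma.affymetrix package for R. Training and test arrays were normalized together, so that intensities may be compared between arrays but not between genes. Precision is limited by how many arrays there are. The authors' later correction by 4 motor neuron genes was an alternative setting here.

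Intensities were taken to log2 with 0 added and no gene filtered out, and a symbol with a hyphen was matched to its form with a dot. The 40 genes and the other lists were chosen with earlier results of these data known. Serum changes were fitted over all 19613 genes by moderated linear models in limma 3.58.1 (R 4.3.3) that blocked on the run. Tests were two-sided, and adjusted p-values (Benjamini-Hochberg) under 0.05 were called. Runs were compared by an F test in the same fit, and their interaction with serum by another. Groups came from the labels. Nothing in the labels states whether arrays of a group stem from separate mice, so p-values measure the spread between these arrays. The procedure was tested on simulated data.

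Genes were named with full values if called, if among the 3 smallest p of the S phase and of the mitotic genes, or if Mki67, Pcna or a transcription factor, and for runs if among the 3 widest ranges of each set. From other lists, the markers included, called genes were named. Olig2, Nkx6-1, Lhx3, Lhx4, Rbfox3, Mnx1, Isl1, Nes, Hes1, Pax6 and Ccna2 were named after their values were seen, as were Plk1 and Ccnb2 for the interaction. Promoters came from the RefSeq table of GRCm38.p6, 1 window per gene. Alternatives changed the block, the scaling, the pseudocount, the filter on dim genes, the variance model or the array weights, or left out each run. The arrays that Grubbs' test called were left out in an alternative chosen after the data were seen.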

Additional observations from a re-analysis of the deposited data

Results flagged for a closer look

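Single arrays lay far from the rest of their run and serum for 2 genes. Non-carrier arrays of the motorneuron run had Kif23 at a log2 intensity of 8.01 on the highest, with the nearest at 7.86. Carrier arrays of run C had Prc1 at 8.12 on the lowest, with the nearest at 8.40. In all, 48 combinations of a gene or list mean with a run and serum of 4 to 10 arrays were examined by Dixon's criterion. Runs and sera with fewer arrays were not examined. Chance meets the criterion in about 1 of 20 independent groups. The 48 share arrays, so that rate is only a rough guide, and 2 does not stand above it.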

How the results depend on the processing

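Under 24 alternative settings, none of the 39 genes was called lower except with the 4 motor neuron genes beside the run, which called 3 genes lower. None was called higher except with array weights (5 genes) and without run C (5 genes), so that leaving out each run in turn gave 0 to 5 genes called higher. The median change of the S phase genes was negative in all 24, from -0.10 to -0.0043, and reached -0.0965 with the 4 motor neuron genes without the run. That of the mitotic genes was negative in 1, at -0.02, in the same setting. All 39 genes differed between runs except where genes below the median intensity were left out, which left 35 to be tested.

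The change of E2f1, 0.00027, was negative with run C as 2 blocks (-0.0022), with the replicate block (-0.0102), with the 4 motor neuron genes without the run (-0.0418), with arrays centred on their median (-0.0071), with a pseudocount of 16 (-0.00018) and over the 9-week arrays (-0.0038), and lay between -0.0086 and 0.0233 when 1 run was left out. That of Foxm1 was positive with the 4 motor neuron genes beside the run (0.0121) and with array weights (0.0091), and lay between -0.0205 and 0.0223 when 1 run was left out. That of Pcna lay between -0.0534 and 0.0016 when 1 run was left out.

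Replicate numbers are shared between sera in 3 runs only. Deviations of same-numbered arrays correlated between -0.13 and 0.33. Correlations of so few pairs cannot show whether these arrays share more than a number. With the replicate block in these runs, 0 genes were called lower and 0 higher, with median changes of -0.02 for S phase and 0.04 for mitotic genes.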
